A study of Mus musculus with 5 samples.

Results

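Broad ZFP541 regions are stretches of the genome of 2000 bp or more that ChIP-seq peaks of ZFP541 covered in mouse spermatocytes. They were chosen by their measured width. Peaks of both wild-type ChIP libraries that shared at least 1 bp were joined into union regions, regions with a peak in the knockout library were dropped, and regions on chromosomes 1 to 19 with a union width of 2000 bp or more were kept. The rule found 762 broad regions among 5254 autosomal ZFP541 regions (14.5%), and 5325 regions were counted over all chromosomes. The other 4492 autosomal regions are called narrower.

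The cells were pachytene and diplotene spermatocytes from testes of adult C57BL/6 mice, enriched by STA-PUT, in which germ cells sediment at unit gravity according to their size. The 5 samples comprised 2 wild-type libraries precipitated with a rabbit antibody to ZFP541, 1 library precipitated in the same way from Zfp541-/- cells of that stage, and 2 wild-type inputs, which were not analysed here. The labels do not say whether the replicates came from separate animals, how many mice were pooled, or how pure the cells were, and peak lists hold no RNA or cell counts with which to check the cell type. With 1 knockout library, its peaks have no replicate check.

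ZFP541 is a male germ cell protein with zinc fingers that binds KCTD19 and the histone deacetylases HDAC1 and HDAC2, and spermatocytes need it to complete meiotic prophase. Deacetylases of this kind remove acetyl groups from histones, a step linked to lower transcription. A peak caller joins neighbouring enriched positions into 1 peak, so the width of a peak depends on read depth, fragment length and the caller's threshold as well as on the chromatin. Many mammalian promoters lie in CpG islands, stretches rich in G, C and the dinucleotide CpG that stay largely unmethylated.

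Promoters of 6 broad regions are shown first: those of highest mean rank of fold among regions at gene ends that cover an annotated start site. They are shown because the regions span start sites and their base composition is described further on. Each sequence is the 250 bases before the start site on the gene's own strand, from the RefSeq promoter table of GRCm38.p6, with every CpG in capitals. In order they lie at chr17:27556354-27556603 (plus strand), chr6:91116827-91117076 (minus strand), chr10:98914392-98914641 (plus strand), chr13:56135551-56135800 (minus strand), chr5:100039744-100039993 (plus strand) and chr1:136260927-136261176 (minus strand).
Hmga1: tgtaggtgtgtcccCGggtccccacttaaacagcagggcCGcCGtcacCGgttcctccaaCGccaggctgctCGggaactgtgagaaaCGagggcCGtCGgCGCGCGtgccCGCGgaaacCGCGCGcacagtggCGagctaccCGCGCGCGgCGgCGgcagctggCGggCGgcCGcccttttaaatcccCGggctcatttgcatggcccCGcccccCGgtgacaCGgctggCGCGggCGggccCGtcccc
Nup210: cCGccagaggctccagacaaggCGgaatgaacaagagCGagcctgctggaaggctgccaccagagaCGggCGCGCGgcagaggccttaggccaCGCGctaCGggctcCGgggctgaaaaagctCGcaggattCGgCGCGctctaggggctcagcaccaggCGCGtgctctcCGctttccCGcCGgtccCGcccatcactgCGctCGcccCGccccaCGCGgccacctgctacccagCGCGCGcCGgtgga
Atp2b1: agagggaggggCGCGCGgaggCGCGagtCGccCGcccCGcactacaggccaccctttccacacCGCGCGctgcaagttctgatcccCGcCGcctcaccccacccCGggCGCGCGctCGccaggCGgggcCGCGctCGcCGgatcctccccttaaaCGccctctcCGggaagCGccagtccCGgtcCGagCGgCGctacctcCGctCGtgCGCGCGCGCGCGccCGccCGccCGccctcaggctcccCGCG
Macroh2a1: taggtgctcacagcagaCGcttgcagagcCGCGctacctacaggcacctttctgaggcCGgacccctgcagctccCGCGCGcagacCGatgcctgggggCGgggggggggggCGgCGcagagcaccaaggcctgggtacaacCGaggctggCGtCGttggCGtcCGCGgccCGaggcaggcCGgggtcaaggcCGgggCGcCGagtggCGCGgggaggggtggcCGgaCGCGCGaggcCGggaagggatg
Enoph1: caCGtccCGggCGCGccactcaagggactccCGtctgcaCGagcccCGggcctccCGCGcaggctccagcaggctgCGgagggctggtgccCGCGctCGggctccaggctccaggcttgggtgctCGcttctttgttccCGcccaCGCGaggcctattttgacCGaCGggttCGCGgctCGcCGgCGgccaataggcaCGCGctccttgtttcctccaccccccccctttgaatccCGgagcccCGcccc
Gpr25: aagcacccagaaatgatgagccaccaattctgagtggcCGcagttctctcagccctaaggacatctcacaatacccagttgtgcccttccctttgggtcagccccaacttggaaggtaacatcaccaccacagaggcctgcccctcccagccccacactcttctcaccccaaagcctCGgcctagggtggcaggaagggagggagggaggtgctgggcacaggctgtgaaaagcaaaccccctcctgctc
The promoter of Hmga1, which encodes an AT-hook protein that bends DNA, holds 35 CpG in these 250 bases. Atp2b1, a plasma membrane calcium pump gene, holds 43, and Nup210, which encodes a membrane protein of the nuclear pore, holds 30. Macroh2a1, the gene of the histone variant macroH2A1, holds 29 and Enoph1, a gene of the methionine salvage pathway, holds 28. Gpr25, the gene of a G protein-coupled receptor, stands apart with 2 CpG.

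Broad regions had a median union width of 2495.5 bp (interquartile range 2216.25 to 2975.5 bp), and the widest measured 7066 bp. These widths chose the regions and are a description. The widest single peak within a broad region had a median of 1771.5 bp in replicate 1 and 2291 bp in replicate 2. The part covered by peaks of both replicates had a median of 1743.5 bp, or 69.3% of the union, against 59.6% in narrower regions. A broad region was 1 peak in each replicate in 429 cases (56.3%). Replicate 1 split 264 regions (34.6%) into more than 1 peak, and replicate 2 split 106 (13.9%). A single peak of 2000 bp or more was present in both replicates at 215 broad regions (28.2%), and at 118 (15.5%) neither replicate had one, so that only the union reached 2000 bp. No peak of that width was found in 1 wild-type library without any peak of the other.

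**Figure D1:**
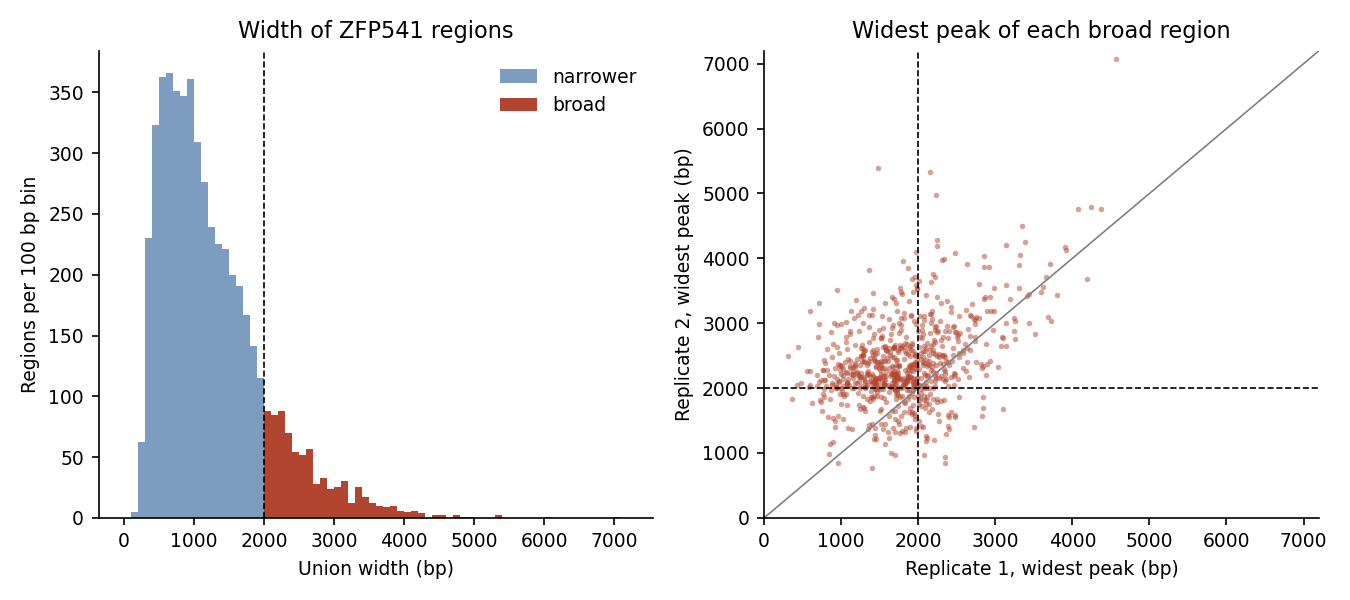
Left, the union width of 5254 autosomal ZFP541 regions in bins of 100 bp (x axis, bp; y axis, regions per bin), with the 762 broad regions in red and the dashed line at 2000 bp. Right, the widest peak of each broad region in replicate 1 (x axis, bp) against replicate 2 (y axis, bp), 1 point per region; the grey line marks equal widths and the dashed lines 2000 bp, and 215 regions lie at or above both.

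The 2 wild-type libraries differed in how broad they showed these regions. Replicate 2 covered more bases than replicate 1 in 609 broad regions (79.9%), and in 71.1% of narrower regions. Alone, replicate 1 held 263 autosomal peaks of 2000 bp or more outside knockout peaks, and replicate 2 held 596. The library that was not used to pick a peak gives a measure of width independent of that choice. Of the 263 broad peaks of replicate 1, all met a peak of replicate 2, with a median width of 2565 bp, and 215 (81.7%, 95% exact interval 76.5 to 86.2%) met one of 2000 bp or more. Of the replicate 1 peaks of 1000 to under 2000 bp, 24.6% did so, and of those under 1000 bp, 4.56%. Picked in replicate 2, 215 of 596 peaks (36.1%, interval 32.2 to 40.1%) met a replicate 1 peak of 2000 bp or more, against 2.63% of those of 1000 to under 2000 bp. Width therefore carried over between the libraries in both directions, and the share was lower from replicate 2 to replicate 1. Read depth is unknown from peak lists, and its part in the difference between the libraries was not tested.

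Broad regions were also the more enriched ones. The fold enrichment that the authors' caller gave to the strongest peak had a median of 9.56 in replicate 1 and 10.4 in replicate 2, against 5.0 and 5.37 in narrower regions. The median −log10 q was 20.1 and 23.8, against 5.61 and 6.96. Width and fold come from the same peaks, so this is a description: across all 5254 regions the rank correlation of union width with fold was 0.664 in replicate 1 and 0.712 in replicate 2, and within the broad regions 0.290 and 0.306. Of the 25% of regions with the highest mean rank of fold, 43.2% were broad, and 568 broad regions (74.5%) were among them. The strongest summits of the replicates lay a median of 86 bp apart in broad and 91 bp apart in narrower regions, and over 500 bp apart in 7.74% and 4.41%.

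No broad region touched a knockout peak, which the rule fixed. That step had removed 11 autosomal union regions of 2000 bp or more, of which 9 lay on chromosome 11 between 3.13 and 3.20 Mb. No broad region had a knockout summit within 10 kb of its own. At the threshold, the regions just inside it were Gps1 with Rfng (2000 bp), Grk6 (2001 bp), Alyref with Anapc11 (2002 bp), Calm3 (2002 bp) and Lrp5 (2003 bp). Just outside were Ttc7b (1999 bp), Zfp516 (1999 bp), Pigp with Ttc3 (1997 bp), Abcc4 (1996 bp) and Grin3b with Tmem259 (1996 bp). Fold enrichment on the 2 sides overlapped: Calm3, inside, had 5.56 and 5.11 in replicates 1 and 2, and Ttc7b, outside, had 7.71 and 8.39.

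The widest region lay over Bhlhe41, which encodes a transcriptional repressor of the circadian clock, at chr6:145861509-145868574. Its 7066 bp were 1 peak in replicate 2 and 2 peaks in replicate 1, the wider of 4568 bp, with folds of 13.6 in replicate 1 and 14.4 in replicate 2. The strongest summits lay 3336 bp apart, at 2133 bp from the start site in replicate 1 and at -1203 bp, upstream of it, in replicate 2. Both libraries thus showed a broad region here but not the same highest point. The region at Tshz1, a zinc finger homeobox gene, and Zadh2 was next among those at gene ends (chr18:84083814-84089143, 5330 bp), with its widest peak of 2156 bp in replicate 1 and 5330 bp in replicate 2. At Ccdc177 (chr12:80755780-80760748, 4969 bp) the libraries were alike in width, with peaks of 4239 and 4785 bp, and the folds were 16.9 and 25.5.

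Several of the other widest regions lay at genes of signalling and chromatin. Ski, which encodes a corepressor of SMAD proteins, had a region of 4778 bp (chr4:155219750-155224527) made of 3 peaks in replicate 1 and 2 in replicate 2, with folds of 10.4 and 15.1. The region of Sox12, a gene of the SRY-related factors, was 1 peak in each library, of 4374 and 4757 bp (chr2:152395635-152400391), with folds of 10.7 and 17.5. Phf2, the gene of a JmjC-domain protein linked to histone demethylation, had 4570 bp (chr13:48868700-48873269) and folds of 13.2 and 9.54. Irs2, an adaptor of insulin signalling, had 4567 bp (chr8:11005623-11010189) and folds of 15.7 and 13.7. Cbx6, a Polycomb gene whose window also holds an end of Npcd, had 4450 bp (chr15:79832289-79836738) and folds of 17.1 and 19.8. Tarbp1, a gene of an RNA-binding methyltransferase, closed the widest regions described (4286 bp, folds of 10.2 and 13.2).

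Ranked by fold, Hmga1 came first among broad regions at gene ends. Its region spanned 3832 bp (chr17:27554428-27558259), with peaks up to 3136 and 3587 bp, folds of 22.8 and 26.3, and summits 11 bp apart about the same point downstream of the start. Nup210 followed with 2620 bp (chr6:91115585-91118204) and folds of 24.5 and 20.8. Atp2b1 had 3547 bp (chr10:98913341-98916887), folds of 20.05 and 21.8, and summits 15 bp apart. Macroh2a1 had 3300 bp (chr13:56133208-56136507) and folds of 21.1 and 19.9. Nup210 exceeded Hmga1 in replicate 1 and Hmga1 exceeded Nup210 in replicate 2, so the libraries ordered these 2 regions differently. Enoph1 and Hnrnpdl, the latter a gene of an RNA-binding protein, shared 1 region of 2828 bp over both start sites (chr5:100038163-100040990), with folds of 17.1 and 23.2. Gpr25 had 4197 bp (chr1:136258239-136262435) and folds of 20.2 and 18.5. Completing the 10 with Ccdc177 were Sppl3, a gene of an intramembrane protease (2676 bp, folds of 17.0 and 20.5), Lin28b, a gene of a let-7-binding protein (2497 bp, folds of 17.9 and 19.3), and Irf2bp2, a gene of a transcriptional cofactor (3989 bp, folds of 16.8 and 20.8).

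**Figure D2:**
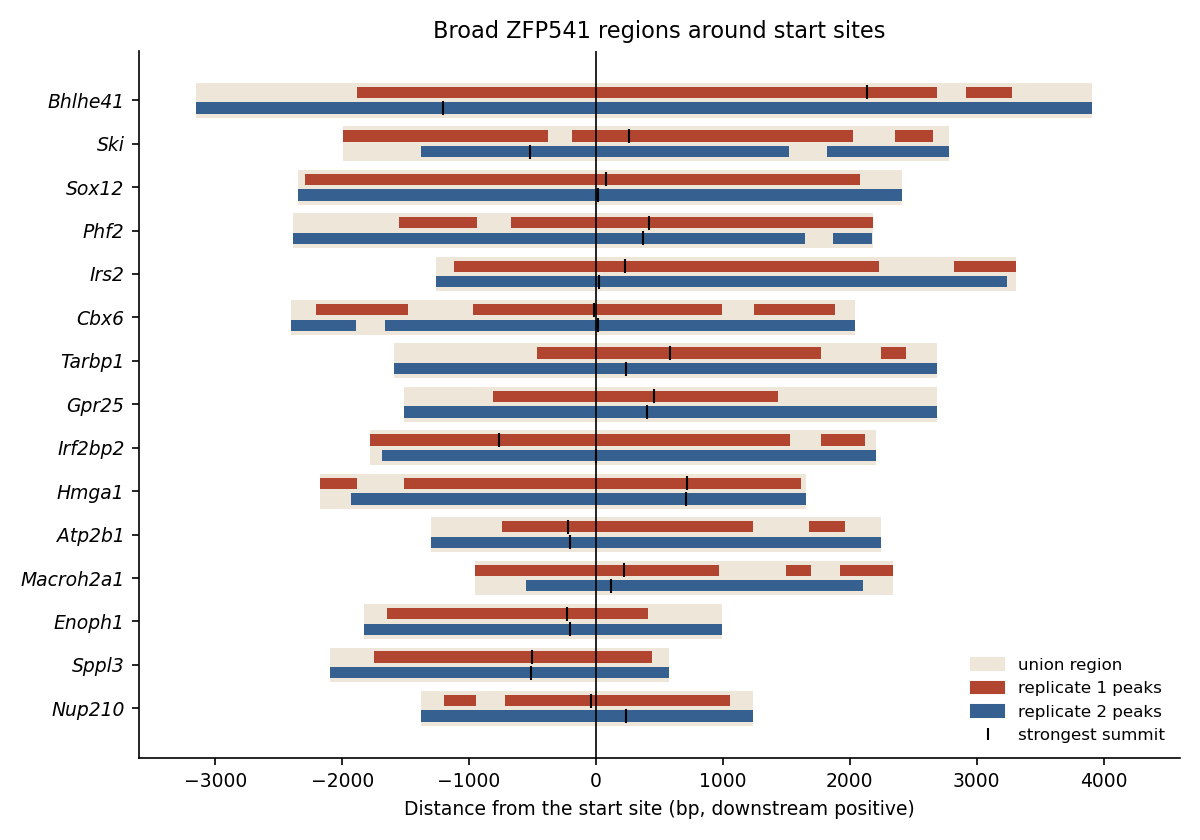
Each row is 1 broad region named by a gene whose start site it covers, ordered by width; the x axis is the distance from that start site in bp, with downstream positive. Pale bars are the union region, red bars the replicate 1 peaks, blue bars the replicate 2 peaks and black ticks the strongest summits, which lie 11 bp apart at Hmga1 and 3336 bp apart at Bhlhe41.

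The strongest summit of a broad region, taken from replicate 1, lay 1 kb or less from a protein-coding gene end in 545 of 762 cases (71.5%, interval 68.2 to 74.7%). For narrower regions the share was 72.3% (interval 71.0 to 73.6%), so the intervals overlapped at this window. With a window of 500 bp the shares were 54.3% (50.7 to 57.9%) and 59.9% (58.5 to 61.4%), lower for broad regions with intervals that did not overlap. Counting the whole region instead of its summit, 83.3% of broad regions (80.5 to 85.9%) and 76.7% of narrower ones (75.4 to 77.9%) came within 1 kb of such an end, so the order depends on the measure. The whole-region measure itself depends on the width that chose the members. Within the broad regions the share of summits within 1 kb went down with width: 77.4% (72.9 to 81.5%) at 2000 to under 2500 bp, 67.0% (59.9 to 73.6%) at 2500 to under 3000 bp and 63.9% (56.5 to 70.9%) at 3000 bp and over. The intervals of the first and the last of these classes did not overlap. The summit was a median distance from the nearest end of 378 bp, 528.5 bp and 594 bp in the same order, against 338 bp in narrower regions. Among the top 25% of regions by fold, the share was 72.0% for broad and 78.0% for narrower regions. A summit away from gene ends but inside a gene body was found in 25.3% of broad regions (22.3 to 28.6%) and 20.7% of narrower ones (19.6 to 22.0%), and a summit outside protein-coding genes in 3.15% (2.03 to 4.65%) and 6.95% (6.22 to 7.73%). By width, the share outside was 13.2% under 500 bp, 7.55% at 500 to under 1000 bp, 4.41% at 1000 to under 1500 bp and 4.79% at 1500 to under 2000 bp. It was 1.82% and 2.58% in the next 2 classes and 6.56% (3.43 to 11.2%) at 3000 bp and over.

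**Figure D3:**
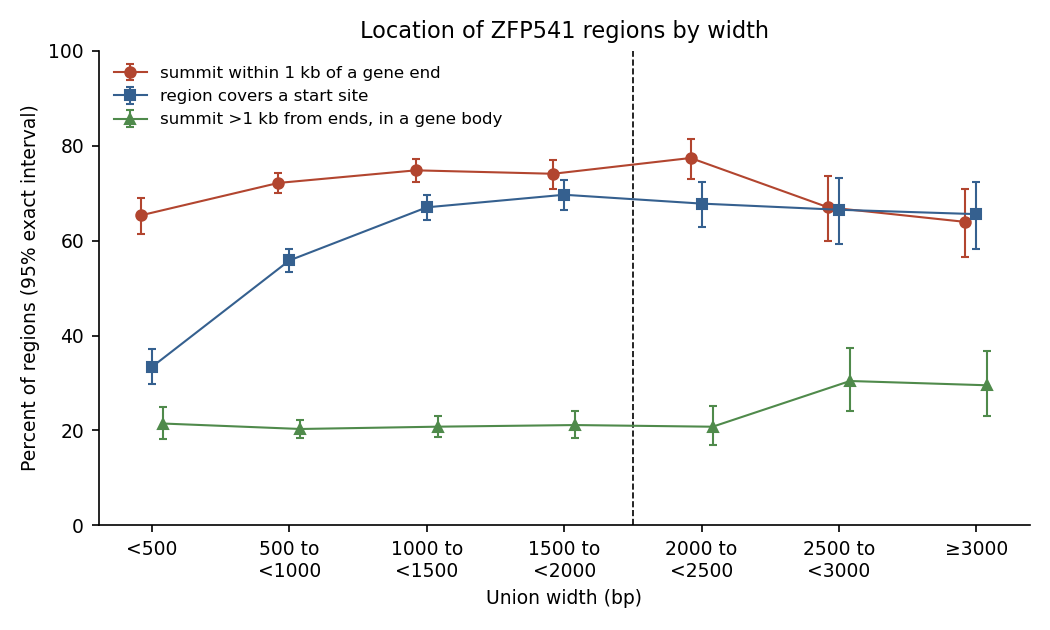
The percent of regions (y axis) in 7 classes of union width in bp (x axis), with 95% exact intervals, for summits within 1 kb of a protein-coding gene end, regions that cover a start site, and summits away from ends inside a gene body; the dashed line marks 2000 bp. The share of summits at gene ends is 77.4% at 2000 to under 2500 bp and 63.9% at 3000 bp and over.

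Of the broad regions, 510 (66.9%) covered an annotated start site of a protein-coding gene, against 58.4% of narrower ones. Cover of a start site also depends on the width that chose the members. By width, the share was 33.4% under 500 bp and 55.8% at 500 to under 1000 bp, and from 1000 bp up it lay between 65.6% and 69.7% in each class, with overlapping intervals. Where start and strand were known, 481 broad regions reached a median of 992 bp upstream and 1531 bp downstream, with the summit 108 bp downstream. They reached farther downstream than upstream in 71.5% of cases (67.3 to 75.5%), and narrower regions in 77.2% (75.5 to 78.9%). Among the named regions, Irs2 extended 1260 bp upstream and 3306 bp downstream, while Sppl3 extended 2097 bp upstream and 578 bp downstream. An lncRNA gene end lay within 1 kb of 20.2% of broad regions (17.4 to 23.2%) and 15.3% of narrower ones (14.2 to 16.4%). This measure counts the whole region, so it depends on the width that chose the members. The lncRNA share was 11.8% under 500 bp, 14.4% at 500 to under 1000 bp, 17.2% at 1000 to under 1500 bp and 16.8% at 1500 to under 2000 bp. It was 18.2% at 2000 to under 2500 bp, 23.2% at 2500 to under 3000 bp and 21.3% at 3000 bp and over. Ends of 2 or more protein-coding genes were met by 10.2% of broad (8.18 to 12.6%) and 12.6% of narrower regions (11.6 to 13.6%). The broad share of regions per chromosome ran from 11.9% on chromosome 11 to 20.5% on chromosome 15, whose intervals overlapped.

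No protein-coding gene end lay within 1 kb of 127 broad regions (16.7%, against 23.3% of narrower ones, a measure that also depends on width). Of these, 109 had the summit inside a protein-coding gene and 55 covered an annotated internal or alternative start site. An lncRNA gene end lay within 1 kb of 25 and a pseudogene end within 1 kb of 4. Inside no gene body, with no start site and no other gene end of any kind, lay 11. The widest of the 127 was inside Klhdc4, a kelch-domain gene (chr8:121821435-121827521, 6087 bp), with 4 peaks in replicate 1 and 2 in replicate 2 and folds of 7.86 and 7.55. Ptch1, the gene of the Hedgehog receptor, had 5388 bp over an internal start site (chr13:63563280-63568667), with a widest peak of 1481 bp in replicate 1 and of 5388 bp in replicate 2. Cpeb1, which encodes a protein that controls poly(A) tails and translation in germ cells, had 4089 bp (chr7:81451929-81456017), also over an internal start site, with folds of 8.06 and 14.8. The other 2 of the 5 widest lay on chromosome 4, nearest to Zfp981 (4805 bp, folds of 10.3 and 18.3) and Zfp600 (4149 bp, folds of 23.0 and 20.3), among runs of similar zinc finger genes. Near-identical copies can share reads, which was not tested here, so the place of these peaks is uncertain.

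Of 20556 autosomal protein-coding genes, 709 had an end at or within 1 kb of a broad region (3.45%), and a further 3837 genes (18.7%) had only a narrower region there. Of 554 genes at broad regions with a known strand, 484 (87.4%) had the region at the start only, 39 at the far end only and 31 at both. Among the genes with both ends at broad regions were Adrb1, C2cd4a, Cebpb, Cramp1l, Dusp2, Egr4, Fancf, Frat1, Frat2, Gp1bb, Gp5, Gpr25, Gpr62, Gsc2, H1f10, H2az1, Irf2bp1, Nkx2-4, Nrtn, Tmem215, Tmsb10 and Zbtb12. Cebpb, a leucine zipper factor, lay under 1 region of 3910 bp with folds of 5.76 and 16.8, and Egr4, an early growth response factor, under 1 of 3205 bp with folds of 12.6 and 15.1. Cramp1l, Jarid2, Nrtn and Samd1 each had 2 broad regions. Those of Jarid2, a gene of a Polycomb cofactor, measured 2263 and 3063 bp and were separated by a short gap.

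Genes at broad regions were long on the whole. Their median length was 40.2 kb, against 27.5 kb for genes at narrower regions only and 15.4 kb for genes at neither. Genes over 100 kb made up 24.4%, 14.4% and 9.90% in the same order. Genes under 5 kb made up 14.2%, 11.3% and 24.9%, so both the longest and the shortest classes had a larger share among genes at broad regions than among genes at narrower regions only. Genes were assigned by ends within 1 kb of the whole region, so these shares also depend on the width that chose the members.

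The 24 gene lists were read against the 3.45% of all protein-coding genes at broad regions and, among genes with any ZFP541 region, against 709 of 4546 (15.6%). In all, 88 of 1055 distinct list genes (8.34%) had a broad region. A list has no test here, and each gene is counted once in it. On the second measure, the interval lay above 15.6% for high mobility group and histone variant, Polycomb and BTB zinc finger genes. It also did for developmental factor genes and for TGF-β, BMP, WNT and NOTCH genes. For ubiquitin enzyme genes it lay below, and for every other list with any region it held 15.6%. Because replicate 2 decides much of the width, counts from single peaks of 2000 bp or more are given for each library alone. The backgrounds were 1.2% of all genes in replicate 1 and 2.68% in replicate 2. Among genes with any peak of the library, they were 4.79% and 9.17%. On that measure replicate 1 gave 18.2% for high mobility group and histone variant, 5% for Polycomb and 31.8% for BTB zinc finger genes. It gave 22.2% for developmental factor and 12% for TGF-β, BMP, WNT and NOTCH genes. Replicate 2 gave 46.2%, 38.1%, 32%, 27.3% and 30.8% in the same order. Polycomb genes were near the background in replicate 1.

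Chromatin genes included several lists with high shares of all their members. Among members with any region, the share was 54.5% (23.4 to 83.3%) for high mobility group and histone variant genes. It was 47.1% (23.0 to 72.2%) for Polycomb genes. For histone methylation genes it was 24.2% (11.1 to 42.3%) and for HDAC1, HDAC2 and HDAC3 complex genes 20% (5.73 to 43.7%). These last 2 intervals held the 15.6% of all genes with any region. Of 18 high mobility group and histone variant genes, 6 had a broad region (33.3%, 13.3 to 59.0%) and 5 only a narrower one, with 2 in replicate 1 alone and 6 in replicate 2 alone. Hmga1 and Macroh2a1 led, followed by Hmgb1, the gene of a DNA-bending chromatin protein (2716 bp, folds of 5.67 and 9.73). Of 29 Polycomb genes, whose products mark and compact silenced chromatin, 8 had a broad region (27.6%, 12.7 to 47.2%) and 9 only a narrower one. Replicate 2 alone gave 8 and replicate 1 alone gave 1, which was Bmi1 (peaks of 2352 and 2258 bp, in a region shared with Commd3), named after its values were seen. Cbx6 led this list, with Rybp, a subunit gene of variant PRC1 (2836 bp, folds of 15.7 and 19.6), and Jarid2 (folds of 13.3 and 19.8 at the stronger region). Their peaks in replicate 1 stayed under 2000 bp. Of 53 histone methylation genes, 8 were at broad regions (15.1%, 6.75 to 27.6%) and 25 at narrower ones only, with 2 and 8 in replicates 1 and 2 alone. They were led by the demethylase gene Kdm4b (2563 bp, folds of 14.6 and 17.8), the H3K36 methyltransferase gene Nsd2 (3333 bp, folds of 14.0 and 18.4) and the H4K20 methyltransferase gene Kmt5b (2412 bp, folds of 9.29 and 10.6).

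Among 32 genes of HDAC1, HDAC2 and HDAC3 corepressor complexes, 4 had a broad region (12.5%, 3.51 to 29.0%), 16 only a narrower one and 12 none, with 1 and 2 in replicates 1 and 2 alone. The 4 were Chd5, a NuRD remodeler gene (2840 bp, folds of 10.3 and 11.1), Tbl1xr1, a gene of the NCoR complex (2920 bp, folds of 13.9 and 8.36), Mideas, a scaffold gene of the mitotic deacetylase complex (2369 bp, folds of 6.52 and 11.4), and Rcor1, the CoREST scaffold gene (2125 bp, folds of 7.71 and 5.37). The Zfp541 gene itself had a narrower region of 1440 bp with high folds, 18.6 and 22.2. Kctd19, Hdac1 and Hdac2 had no ZFP541 region within 1 kb of an end. The region at Zfp541 shows that high enrichment occurred without great width.

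Among transcription factor lists, 8 of 39 BTB zinc finger genes had a broad region (20.5%, 9.30 to 36.5%) and 12 only a narrower one. Replicate 1 alone gave 7 and replicate 2 alone gave 8, so this count was alike in the libraries. Zbtb14 had 3251 bp with peaks of 3251 and 2750 bp and folds of 14.6 and 14.8, and Zbtb1 and Zbtb25 shared 1 region of 4267 bp. Of 25 E protein, Id and related helix-loop-helix genes, 5 had a broad region (20%, 6.83 to 40.7%). They were Bhlhe41, Tcf12 (2187 bp, folds of 12.9 and 13.8), Hes1, a NOTCH target (2848 bp), Id4, a marker of spermatogonial stem cells (2206 bp), and Hey1 (2010 bp). Single peaks gave 2 and 4 of them. Of 41 forkhead genes 5 had a broad region (12.2%, 4.08 to 26.2%), led by Foxc1, Foxo3 and Foxn2, with 1 and 4 in replicates 1 and 2 alone. Among members with any region, the E protein list gave 35.7% (12.8 to 64.9%) and the forkhead list 38.5% (13.9 to 68.4%). Both of these intervals held 15.6%. Of 72 developmental factor genes of the Sox, Pax, Tbx, Gata, Lhx, Nkx and Six5-type families 7 had one, led by Lhx8 (3527 bp, folds of 16.7 and 14.8), Sox12 and Nkx2-4, with 4 and 6. Nuclear receptor genes gave 4 of 43 (9.30%, 2.59 to 22.1%), with 3 in each library alone. They were Nr3c2, the mineralocorticoid receptor (3114 bp, folds of 16.2 and 17.0), Rxra (4164 bp), Nr2f6 and Nr1d1. Hox genes gave 2 of 39 (5.13%, 0.627 to 17.3%), Hoxd8 and Hoxa4, with 0 and 2. For nuclear receptor and Hox genes the interval held the 3.45% of all genes.

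Signalling and cell cycle genes followed. Of 43 TGF-β, BMP, WNT and NOTCH genes, 10 had a broad region (23.3%, 11.8 to 38.6%) and 14 only a narrower one. Replicate 1 alone gave 3 and replicate 2 alone gave 8. Tgfbr3, a TGF-β co-receptor, Lrp5, a WNT co-receptor, and Ski led by rank, with folds of 13.2 and 13.4 at Tgfbr3. Of 70 MAP kinase, Dusp and Spry genes, 6 had a broad region (8.57%, 3.21 to 17.7%), an interval that held the 3.45% of all genes. A further 26 had only a narrower one, and each library alone gave 3. Dusp14, a phosphatase gene, Spred1 and Spry2, inhibitors of RAS signalling, led. Of 51 cyclins, CDKs and their inhibitors, 6 had a broad region (11.8%, 4.44 to 23.9%), with 2 and 5 in replicates 1 and 2 alone. Among members with any region the share was 37.5% (15.2 to 64.6%), an interval that held 15.6%. The E-type cyclin genes Ccne2 (2250 bp, folds of 19.1 and 14.0) and Ccne1 (2637 bp, folds of 9.33 and 16.9) led by rank. The inhibitor gene Cdkn2a (2566 bp, folds of 8.94 and 15.4) came next.

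For lists of meiosis and sperm formation the counts could not be told from the 3.45% of all genes, which lies inside the interval of each. The 23 piRNA genes (0 to 14.8%) and the 29 spermiogenesis genes (0 to 11.9%) had 0, with 8 and 6 at narrower regions only. Of 41 genes of meiotic chromosomes 1 had one (2.44%, 0.0617 to 12.9%), Rec114, a gene needed for meiotic DNA breaks, in a region shared with Hcn4. Of 21 genes of pachytene transcription 1 had one (4.76%, 0.120 to 23.8%), Ovol1, beside 10 at narrower regions only, and of 30 spermatogonial and meiotic entry genes 2 had one (6.67%, 0.818 to 22.1%), Id4 and Pou3f1. The same holds for lists of general cell upkeep. Of 153 ubiquitin enzyme genes, 3 had a broad region (1.96%, 0.406 to 5.62%), Rnf130, Usp1 and Rnf157, and 57 only a narrower one, and single peaks gave 2 in each library. Among the 60 ubiquitin enzyme genes with any region, however, the 3 made up 5% (1.04 to 13.9%), an interval below 15.6%. Of 32 hnRNP and SR genes 2 had one (6.25%, 0.766 to 20.8%), Hnrnpdl and Hnrnpa0, beside 15 at narrower ones. Of 71 ribosomal protein genes 1 had one (1.41%, 0.0357 to 7.60%), Rpl7, in a region shared with Rdh10, and of 93 respiratory chain genes 0 did (0 to 3.89%), beside 11 and 16 at narrower regions only. As to other cell types of the testis, of 19 Sertoli, Leydig and peritubular markers 1 had a broad region, Amh, shared with Jsrp1, and of 15 blood and endothelial markers 0 had any region. At Rec114, Ovol1 and Amh a single peak of 2000 bp or more was present in replicate 2 and not in replicate 1, and at Rpl7 in replicate 1 and not in replicate 2.

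**Figure D4:**
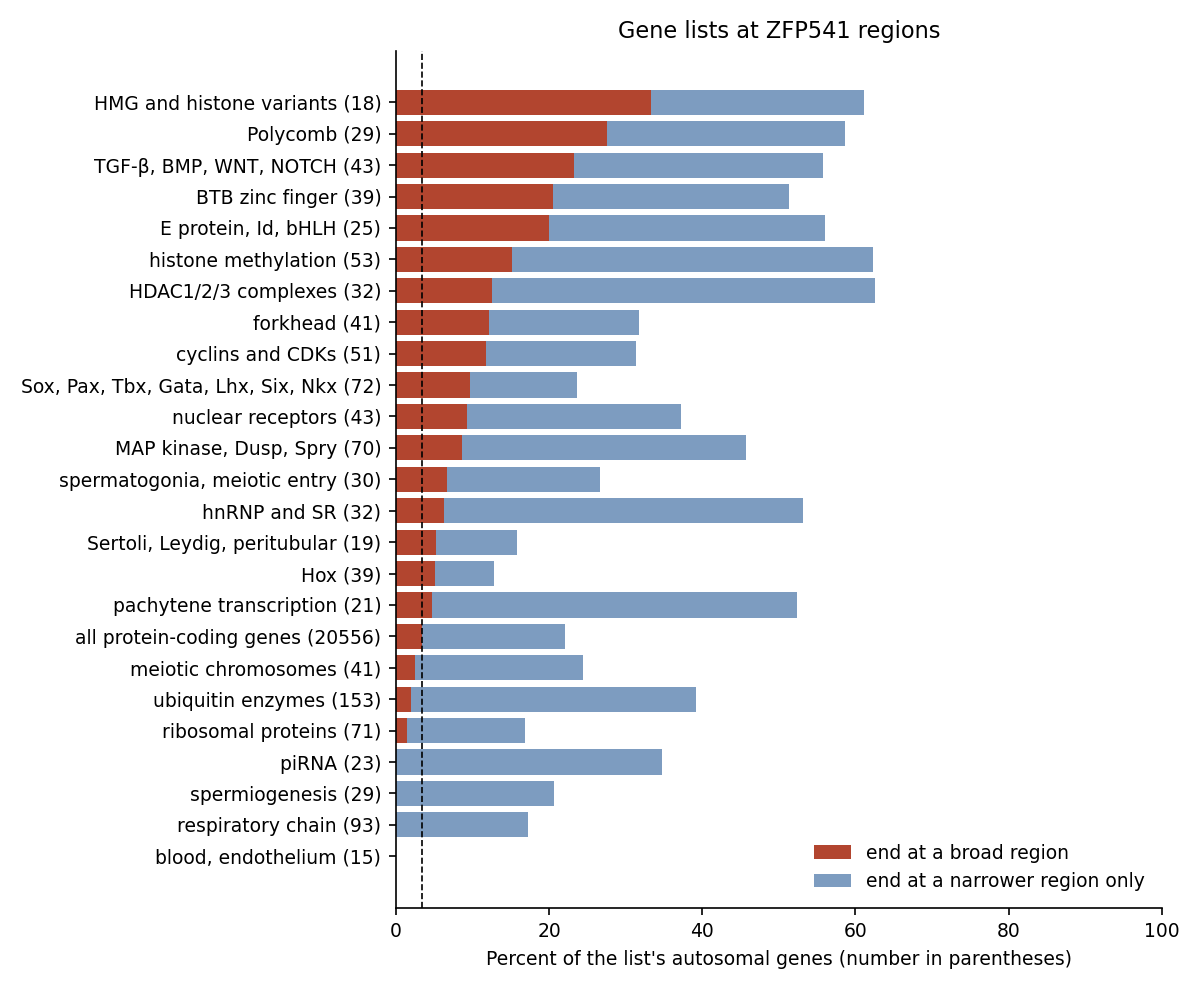
Each bar is 1 gene list, with the number of its autosomal genes in parentheses; the x axis is the percent of them with an end within 1 kb of a broad region (red) or of a narrower region only (blue), and the dashed line is the 3.45% of all protein-coding genes at broad regions. High mobility group and Polycomb genes are at the top and respiratory chain, spermiogenesis and piRNA genes have no red part.

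Promoters of 16456 of 20556 autosomal protein-coding genes (80.1%) were in the RefSeq table, each as 250 bases before and 50 after the start. Each gene was counted with 1 promoter. Where a region covered a start site, it was the covered start nearest the summit, and otherwise the first listed start. Promoters with no region are those of genes with no covered start site, and a region could still lie near an end. Promoters whose start lay in a broad region (538) were richer in G and C than those in narrower regions (2782). The median was 72.3% (interquartile range 67.0 to 77.7%) against 67.7% (62.0 to 72.7%), and 54.3% with no region. The median number of CpG per 300 bp was 37, 29 and 9 in the same order, and the observed over expected ratio of CpG 0.961, 0.885 and 0.449. Within the top 25% of regions by fold the medians were 73.0% and 68.0%, so the gap was also present among regions of high fold. Across the 3 width classes of broad regions GC went from 71.7% to 73.3% and 74.2%. In replicate 1 alone it was 73.0% against 68.0%, and in replicate 2 alone 73.0% against 67.3%.

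Of 8 short motifs searched on both strands, none of which contains another, the GC box GGGCGG, bound by SP and KLF factors, was in 83.1% of promoters at broad regions (79.6 to 86.2%), 79.4% at narrower ones (77.9 to 80.9%) and 47.8% of all promoters. The ETS-type sequence CCGGAAG was in 6.69% (4.73 to 9.14%) at broad regions, 18.2% (16.8 to 19.7%) at narrower ones, 11.3% with no region and 12.3% of all. The share at broad regions lay below all the others, and it fell with width, from 9.45% at 2000 to under 2500 bp to 5.84% and then 1.59% (2 of 126) at 3000 bp and over. In the top 25% by fold it was 6.95% against 17.6%, and with each library alone 5.08% against 17.2% and 6.24% against 17.8%. Base composition differs between these sets, so the shares were also taken within classes of GC, a step chosen after the values were seen. At 60 to 65% GC the motif was in 2 of 54 promoters at broad regions (3.70%, 0.452 to 12.7%) and in 22.9% (19.4 to 26.8%) at narrower ones. At 65 to 70% the shares were 10.8% and 21.1%, at 70 to 75% 7.58% and 15.4%, at 75 to 80% 5.6% and 9.48%, and at 80% and over 7.78% and 11.4%. In each of these 5 classes the broad share was below that of narrower regions, but above 65% the intervals overlapped. In promoters with no region the shares were 20.3%, 19.4%, 14.7%, 8.47% and 2.94% (1 of 34), from the lowest class to the highest. At 80% GC and over the broad share was thus above that of promoters with no region, and above 65% these intervals overlapped too.

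The other motifs differed less. CCAAT was in 29.9% of promoters at broad and 35.0% at narrower regions (38.8% of all), the E box CACGTG in 11.7% and 13.6% (8.06% of all), the cAMP response element TGACGTCA in 1.67% and 3.70% (2.42% of all), GCATGCG, which lies within the site of NRF1, in 5.39% and 8.05% (4.56% of all), CCTCAG in 23.8% and 25.5% (26.8% of all), and CAGTTG, of MYB type, in 4.83% and 6.90% (11.8% of all). In the sequences printed above, GGGCGG or its complement occurs 4 times in Hmga1 and in Atp2b1, 2 times each in Nup210, Macroh2a1 and Enoph1, and not in Gpr25. CCGGAAG is in none of the 6. A match says only that these letters stand in the window.

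**Figure D5:**
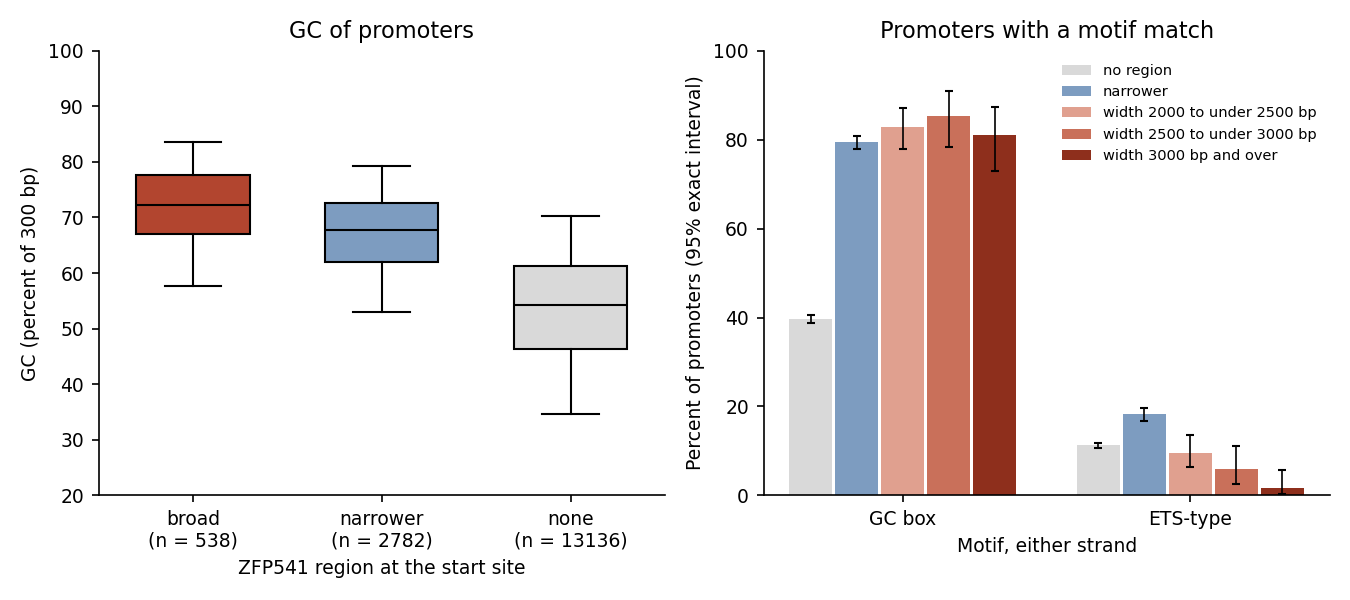
Left, GC of promoters (y axis, percent of 300 bp) by the ZFP541 region at the start site; boxes are quartiles with the median and whiskers run from the 5th to the 95th percentile. Right, the percent of promoters (y axis) with the GC box or the ETS-type motif by region class and width, with 95% exact intervals; the ETS-type share goes from 18.2% at narrower regions to 1.59% at 3000 bp and over.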

How the data were processed

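ChIP-seq of ZFP541 was analysed from 3 peak lists, 1 for each wild-type replicate and 1 for the knockout. Per the labels' protocols, formaldehyde (1%) fixed the cells. The submitters' processing notes name the mm10 build, MACS2 2.2.6, Bowtie2 2.3.5, cutadapt 2.6, deepTools 3.5.0, SAMtools 1.10 and Picard. How they were set, and which threshold a peak had to pass, is not given in the sources used here. Peaks were called per sample, since every deposited list holds 1 library. The deposited lists hold per peak the −log10 of p and of q, a score, the summit and the fold enrichment, a ratio to local background. These values are the authors' own and only describe, rank or filter peaks. Depth is unknown, and no p-value was computed.

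Regions were joined from peaks of both replicates sharing 1 bp, and the summit is taken from the strongest replicate 1 peak by fold. The rank of fold is the percentile over all autosomal regions, averaged over the replicates. The ends of genes are those of RefSeq on GRCm38.p6 (mm10), without 340 entries placed before 3 Mb on scaffold coordinates. Strand, start sites and sequences came from the RefSeq promoter table. Shares have 95% exact Clopper-Pearson intervals, which cover counting error only. Regions, lists, motifs and most alternatives were chosen with earlier results of these data known. Named were the 10 widest and the 10 highest-ranked regions at gene ends, up to 3 members of each list, the 5 widest regions away from ends, the 5 on each side of 2000 bp, genes with both ends or 2 regions, and Zfp541, Kctd19, Hdac1 and Hdac2. List and promoter values from each replicate alone were added after seeing the data. Of the 10 widest regions, 1 is not reported here. Of all list names, 1 had no match in the gene table. Scripts ran in Python 3.11.15 (scipy 1.17.1, pandas 2.3.3, numpy 2.4.6, and for plots matplotlib 3.10.9), and the joining and interval steps were tested on simulated data.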

Additional observations from a re-analysis of the deposited data

Results flagged for a closer look

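On chromosome X, outside the autosomal regions described above, 1 broad ZFP541 region was found among 39 regions. It stands out because it is signal in data the comparisons do not use. It lay at Lonrf3, a gene of a RING finger protein (chrX:36328242-36330275), with a union width of 2034 bp. Its widest peak measured 2034 bp in replicate 1 and 1786 bp in replicate 2, and the folds were 9.64 and 9.06, near the medians of the autosomal broad regions. No knockout peak touched it.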

How the results depend on the processing

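Of 89 values recomputed under alternatives, 50 stayed within the spread between replicates (fold), the interval of the share, or 1.5 times the count, and 39 moved further. Promoter GC had the same median in each replicate alone, a spread of 0, so any change of it is among the 39. The number of broad regions, 762, was 1576 at a minimum of 1500 bp, 183 at 3000 bp, 240 when width was the part covered by both replicates, 215 with a peak of 2000 bp or more in each, and 263 to 596 from 1 replicate alone. The genes at them were 1455, 169, 225, 199 and 246 to 551 in the same order, and the list members 167 at 1500 bp, 28 at 3000 bp and 33 with a broad peak in each replicate, against 88. Median fold (mean of the replicates, 10.2) was 9.01 at 1500 bp, 11.9 at 3000 bp, 11.9 for the part covered by both, 12.2 with a broad peak in each, 11.2 for peaks with a −log10 q of at least 10, and 10.4 to 11.1 from 1 replicate. Summits within 1 kb of a gene end, 71.5%, were 63.9% at 3000 bp, 67.1% for the part covered by both, 67.0% with a broad peak in each, and 54.3% and 81.5% with windows of 500 bp and 2 kb. For narrower regions, 72.3%, they were 59.9% and 80.7% with those windows, 75.8% and 76.4% for a −log10 q of at least 5 and 10, 74.6% with a reciprocal overlap of 50%, 70.6% with knockout regions kept, and 53.9% to 60.4% from 1 replicate, where peaks without a partner are included. Promoter GC, 72.3%, was 73.0% for a −log10 q of at least 5, 71.3% at 1500 bp, 74.0% at 3000 bp and 73.3% with a broad peak in each. Transfer from replicate 1 to 2, 81.7%, was 75.7% at 3000 bp, and from 2 to 1, 36.1%, was 48.6% at 1500 bp and 23.3% at 3000 bp. Changed counts follow from the construction of these settings, and for the other values the cause was not tested. The alternatives with a broad peak in each replicate, and without the regions before 3.5 Mb of a chromosome, were chosen after seeing the data. Replicate 2 decides the count: without it 263 remain.

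No paired analysis was possible because the wild-type and knockout ChIP groups share only 1 replicate number and no test was run. Peak width depends on depth, which the peak lists do not give.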
